A study of Caenorhabditis elegans with 6 samples.

Results

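The *pals* genes of *Caenorhabditis elegans* encode proteins that share the ALS2CR12 signature, and all rows of the deposited gene table whose symbol is *pals* followed by a number were taken as members. This gave 38 of 19933 genes. The family was selected on measured values of the same contrast, the CPM of its members in *pri-1* RNAi and EV RNAi libraries, so the levels and calls of its members below are a description, and no p-value is given for them. RNA-seq libraries were made from embryos of wild-type (strain N2) hermaphrodites. Their mothers were fed from the first larval stage, for 96 hours at 20 °C, with *Escherichia coli* that carried either the empty vector (EV RNAi, 3 libraries) or a clone that produces double-stranded RNA against *pri-1* (*pri-1* RNAi, 3 libraries). *pri-1* encodes a subunit of the DNA primase, which makes the RNA primers for DNA replication. Both groups therefore share the strain, the feeding with RNAi bacteria and the harvest of laid eggs. Each library pools many embryos whose stages the labels do not give. The paper reports that eggs of *pri-1* RNAi mothers do not hatch and arrest early in embryogenesis, before morphogenesis. The part of embryo stage in the differences below was not tested. The study describes its replicates as experiments, and the labels do not state separate cultures, so the errors below measure the spread between these libraries.

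Many *pals* genes belong to the intracellular pathogen response (IPR), a set of genes that worms switch on when microsporidia or the Orsay virus infect the intestine, and also under some forms of protein stress. In adult and larval worms, PALS-22 keeps this response off and PALS-25 turns it on, and both act as a pair of opposing regulators encoded by neighbouring genes. A second opposing set consists of PALS-17, which holds the response down, and PALS-20 and PALS-16, which promote it. Other members are known mainly as genes that are transcribed during the response, and a reporter made from the *pals-5* promoter is a common readout of it.

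The target of the RNAi, *pri-1*, stood at 41.2, 47.2 and 26.9 CPM in EV RNAi replicates 1, 2 and 3 and at 28.6, 28.7 and 24.3 CPM in *pri-1* RNAi replicates 1, 2 and 3. The groups overlapped through EV RNAi replicate 3, and limma did not call the difference (adjusted p = 0.285, log2 fold change -0.46 (SE 0.29)), so that the transcript level does not by itself check the labels. EV RNAi replicate 3 also stood apart in its scaling, with trimmed-mean (TMM) factors of 1.004, 1.212 and 0.6633 in EV RNAi and 1.246, 0.9356 and 1.062 in *pri-1* RNAi libraries. Without it, the log2 fold change of *pri-1* was -0.69, which was not called either.

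Most *pals* genes were close to 0 in EV RNAi embryos, with a mean under 1 CPM (counts per 1000000 reads of a library) in 26 of 38, and the members that were higher in *pri-1* RNAi embryos reached means of 0.789 to 29.8 CPM there. The regulators *pals-22* and *pals-25* were instead among the most abundant members per length of exon in both groups. In CPM without further scaling, they differed by less than the spread between libraries. Of the 38 members, 37 reached 0.5 CPM in at least 3 libraries and were tested with limma on log2(CPM + 0.5) among 14801 genes, with a threshold of 0.05 for the adjusted p-value. A gene past this threshold is said here to be called. Of the tested members, 29 were called higher in *pri-1* RNAi embryos, 0 were called lower and 8 were not called. Over all tested genes, 17.3% were called higher and 9.94% lower. In no member was the difference below 0 with an unadjusted limma p-value under 0.05, while edgeR on recovered reads called 1 member lower and DESeq2 called 2. Every *pri-1* RNAi library lay above every EV RNAi library in 30 members, 29 of them tested, and this held for 25.4% of all tested genes. *pals-23* was the only member in which every *pri-1* RNAi library lay below every EV RNAi library, and in the other 7 members the groups overlapped. The overlap depends on the scaling. With TMM scaling, every *pri-1* RNAi library also lay below every EV RNAi library in *pals-18*, *pals-22* and *pals-24*, and above every one in *pals-16*.

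These counts depend on the filter on low values. Of the 37 tested members, 18 passed it only through the *pri-1* RNAi libraries, so that a difference was needed for them to be tested at all. All 18 were called higher, as were 97.4% of all tested genes that stayed under 0.5 CPM in every EV RNAi library. Of the 19 members with at least 0.5 CPM in some EV RNAi library, 11 were called higher, beside 11.9% of all such genes. Among them *pals-6*, *pals-9*, *pals-14*, *pals-15*, *pals-30* and *pals-37* reached 0.5 CPM in EV RNAi replicate 2 only. They too needed *pri-1* RNAi libraries to be tested. Of the members at 0.5 CPM or more in every EV RNAi library, *pals-17* and *pals-26* were called higher. *pals-18*, *pals-19*, *pals-22*, *pals-23*, *pals-24*, *pals-25* and *pals-34* were not. The median log2 fold change of the tested members was 2.39, beside -0.01 over all tested genes. The log2 fold changes are those of CPM + 0.5, which understates the change of genes near 0, and a ratio of the mean CPM is given beside them where the EV RNAi level was above the counting floor of 3 reads (0.0185 to 0.0244 CPM, which covers counting error only). In bulk samples, more transcript per cell cannot be told apart from more cells that hold it.

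**Figure D1:**
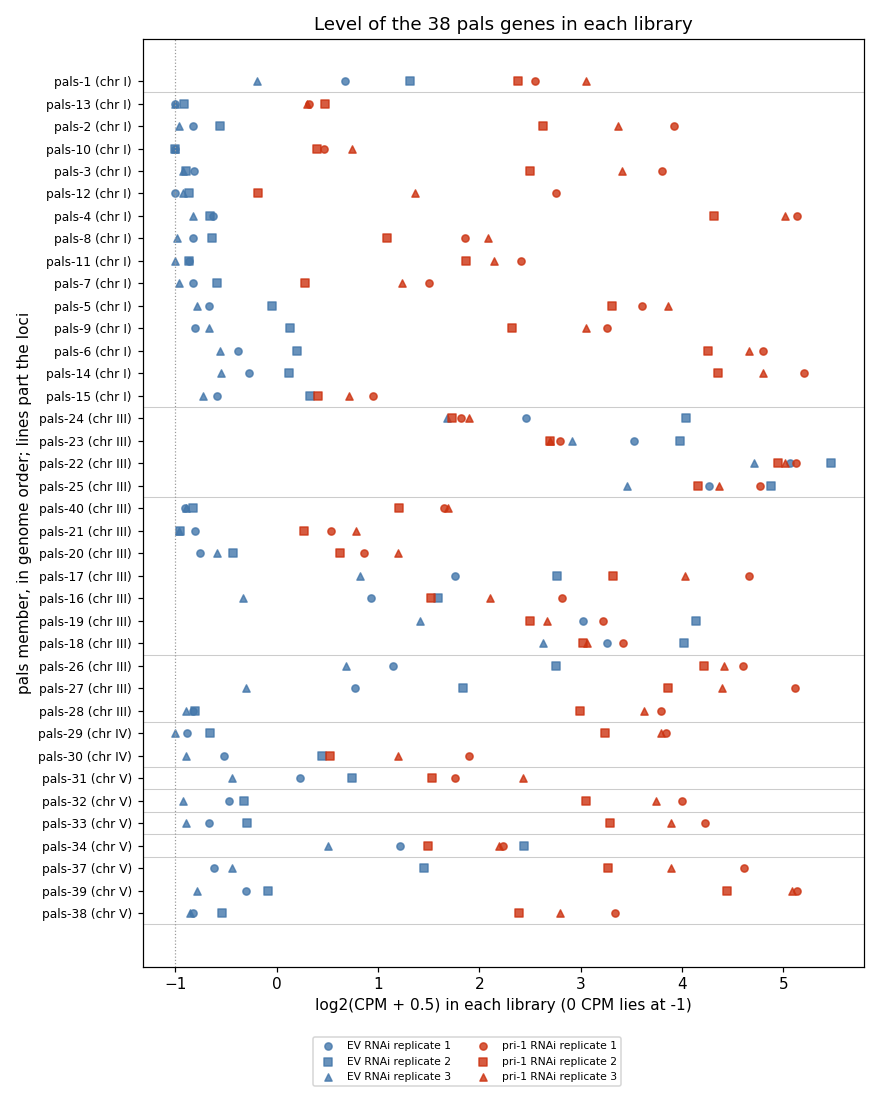
Level of each of the 38 *pals* genes in the 6 libraries, on the log2(CPM + 0.5) scale, where 0 CPM lies at -1. Blue symbols are EV RNAi libraries, red symbols are *pri-1* RNAi libraries, and circles, squares and triangles are replicates 1, 2 and 3. Genes run in genome order with lines between the loci. The red symbols lie to the right of the blue ones in 30 genes, and the symbols of *pals-22* and *pals-25* intermingle at 10.5 to 43.7 CPM.

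The regulators were set against the other members first. *pals-22* (WBGene00016216; chromosome III, 132418 to 134401 on the plus strand in WBcel235) had 33.1, 43.7 and 25.6 CPM in EV RNAi replicates 1, 2 and 3 and 34.5, 30.4 and 31.8 CPM in *pri-1* RNAi replicates 1, 2 and 3, an order of libraries kept for all values below. The *pri-1* RNAi libraries thus lay within the range of the EV RNAi libraries. Its means were 34.1 ± 9.11 and 32.2 ± 2.05 CPM (SD, n = 3 each), and the log2 fold change was -0.05 (SE 0.27), with a sign that turned positive with median centring (0.16) and without EV RNAi replicate 2 (0.14). *pals-25* (WBGene00020540; chromosome III, 134494 to 137975, plus strand) starts 92 bp after the end of *pals-22* and had 18.7, 28.9 and 10.5 CPM in EV RNAi and 26.9, 17.4 and 20.1 CPM in *pri-1* RNAi libraries. Again all libraries of *pri-1* RNAi embryos were between the lowest and the highest EV RNAi library. Its means were 19.4 ± 9.19 and 21.4 ± 4.88 CPM (SD, n = 3 each), with a log2 fold change of 0.23 (SE 0.41) that turned to -0.14 without EV RNAi replicate 3.

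The level of *pals-22* relative to *pals-25*, not corrected for length, was 1.76, 1.52 and 2.44 in the EV RNAi libraries and 1.28, 1.75 and 1.58 in the *pri-1* RNAi libraries. The groups overlapped in this ratio, with means of 1.91 ± 0.476 (SD, n = 3) and 1.54 ± 0.237 (SD, n = 3). Per kilobase of exon, *pals-22* was the highest of the 38 members in both groups, with 38.2 CPM per kb in EV RNAi and 36.1 CPM per kb in *pri-1* RNAi embryos. *pals-25* ranked 2 in EV RNAi at 18.1 CPM per kb and ranked 5 in *pri-1* RNAi at 20.0 CPM per kb, where *pals-4* (23.8), *pals-14* (23.4) and *pals-39* (20.2) had come between them. In EV RNAi embryos *pals-4* stood at 0.0954, *pals-14* at 0.308 and *pals-39* at 0.187 CPM per kb.

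Summed over the family, the level was 98.2, 171.6 and 59.7 CPM in EV RNAi libraries and 495, 287 and 407 CPM in those of *pri-1* RNAi. The groups did not overlap, and the ratio of the mean sums was 3.61. *pals-22* and *pals-25* together gave 51.8, 72.6 and 36.1 CPM in EV RNAi and 61.3, 47.8 and 52.0 CPM in *pri-1* RNAi libraries, a ratio of the means of 1.00. Their share of the family sum was 52.8, 42.3 and 60.5% in the EV RNAi libraries and 12.4, 16.7 and 12.8% in the *pri-1* RNAi libraries. The sum of the other 36 members went from 56.3 ± 38.7 to 343 ± 98.1 CPM (SD, n = 3 each), a ratio of 6.09. When *pals-18*, *pals-19*, *pals-23* and *pals-24*, whose means were below those of EV RNAi embryos, were set aside with the 2 regulators, the remaining 32 members went from 18.2 ± 15 to 318 ± 94.8 CPM (SD, n = 3 each), a ratio of 17.5. This division of the members follows their measured values. The number of members with at least 1 CPM was 12, 14 and 8 in the EV RNAi libraries and 35, 31 and 37 in the *pri-1* RNAi libraries.

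**Figure D2:**
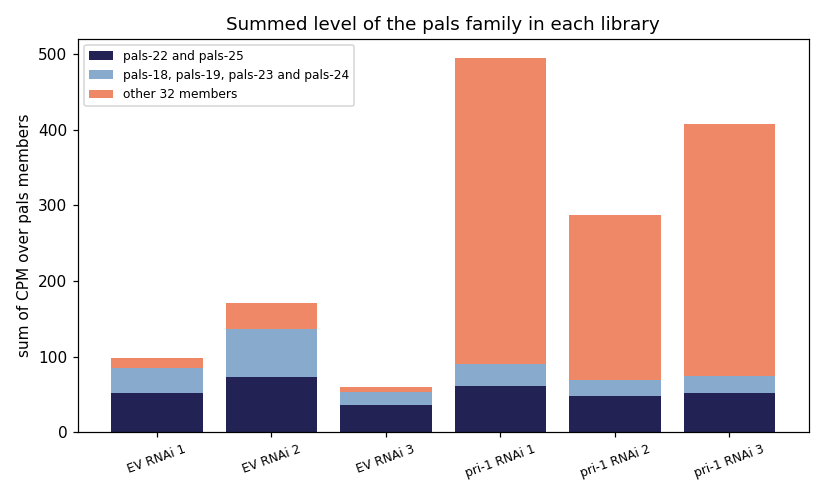
Summed CPM of the *pals* family in each library, stacked as *pals-22* and *pals-25* (dark blue), *pals-18*, *pals-19*, *pals-23* and *pals-24* (light blue) and the other 32 members (orange). The dark part is between 36.1 and 72.6 CPM in all 6 libraries, while the orange part is between 6.06 and 34.9 CPM in EV RNAi and between 218 and 406 CPM in *pri-1* RNAi libraries.

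The genome neighbours of the regulators were the members with the lowest log2 fold changes. On chromosome III between 120435 and 137975, *pals-24*, *pals-23*, *pals-22* and *pals-25* lie in this order on the plus strand, and 0 of the 4 were called. *pals-23* (124778 to 127971) had 11.0, 15.3 and 7.03 CPM in EV RNAi and 6.42, 5.99 and 5.97 CPM in *pri-1* RNAi libraries. Its means were 11.1 ± 4.15 and 6.13 ± 0.254 CPM (SD, n = 3 each) and its log2 fold change was -0.75 (SE 0.37). It was called lower with TMM scaling (-0.94), by edgeR (-0.97), by DESeq2 (-0.94) and without EV RNAi replicate 3 (-1.03). *pals-24* (120435 to 124690), whose end lies 87 bp before the start of *pals-23*, had 4.99, 15.9 and 2.69 CPM in EV RNAi and 3.03, 2.81 and 3.23 CPM in *pri-1* RNAi libraries. Here the EV RNAi libraries were far apart, and replicate 2 alone was above 5 CPM. The log2 fold change was -0.91 (SE 0.58), and it was called lower by DESeq2 (-1.33) and without EV RNAi replicate 3 (-1.43). Summed over these 4 genes, the level was 45.8 to 103.9 CPM in EV RNAi and 56.6 to 70.8 CPM in *pri-1* RNAi libraries.

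A second stretch of chromosome III, from 1376945 to 1406263, holds 7 members, among them the other known regulators. *pals-17* (1390450 to 1391852, minus strand), which holds the response down, had 2.89, 6.29 and 1.27 CPM in EV RNAi and 24.8, 9.48 and 15.8 CPM in *pri-1* RNAi libraries. It was thus higher in every *pri-1* RNAi library, by 4.80-fold in the mean, and was called with a log2 fold change of 2.22 (SE 0.58). The call was lost without EV RNAi replicate 1, without *pri-1* RNAi replicate 1 or without *pri-1* RNAi replicate 3, and the log2 fold change ran from 1.74 to 2.71 with 1 library left out. *pals-20* (1386993 to 1388324, minus strand), a positive regulator, had 0.0899, 0.241 and 0.165 CPM in EV RNAi and 1.32, 1.04 and 1.80 CPM in *pri-1* RNAi libraries, an 8.40-fold higher mean at a low level, and was called with 1.49 (SE 0.23). Over 502 bp its exons lie opposite those of *Y82E9BR.5*, and its values were not whole numbers of reads in any library, so they are estimates that reads of another transcript may share. *Y82E9BR.5* itself was not called by limma (adjusted p = 0.63, log2 fold change 0.23).

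*pals-16* (1399970 to 1401401, plus strand), the other positive regulator, had 1.41, 2.52 and 0.294 CPM in EV RNAi and 6.56, 2.38 and 3.81 CPM in *pri-1* RNAi libraries. *pri-1* RNAi replicate 2 was below EV RNAi replicate 2, and the log2 fold change of 1.42 (SE 0.56) was not called. It was called with TMM scaling (1.32), with median centring (1.63), by DESeq2 (1.61) and without EV RNAi replicate 2 (1.85). A block for the number in the library name also called it (1.87), but that fit compares the groups within 2 pairs of libraries only. Next to *pals-16* lie *pals-19* and *pals-18*, whose exons overlap by 53 bp on the same strand. *pals-19* had 7.64, 17.1 and 2.16 CPM in EV RNAi and 8.83, 5.15 and 5.87 CPM in *pri-1* RNAi libraries, and *pals-18* had 9.08, 15.7 and 5.66 and 10.2, 7.60 and 7.85 CPM. In both genes all *pri-1* RNAi libraries were between EV RNAi replicates 3 and 2, and the log2 fold changes were -0.06 (SE 0.66) and -0.14 (SE 0.42), which turned above 0 with median centring (0.15 and 0.08). *pals-40* and *pals-21*, at the other end of the stretch, went from 0.0448 ± 0.0159 to 2.39 ± 0.503 CPM and from 0.0340 ± 0.0341 to 0.960 ± 0.260 CPM (SD, n = 3 each) and were called higher, with log2 fold changes of 2.39 (SE 0.22) and 1.44 (SE 0.20). Within 29.3 kb, the stretch held 4 members that were called higher, beside 17.3% of all tested genes, and 3 that were not called. Of the called ones, *pals-20*, *pals-21* and *pals-40* passed the filter only through the *pri-1* RNAi libraries, where 97.4% of all such genes were called higher. Of the 2 other tested coding genes within it, 1 was called higher. That gene, *Y82E9BR.6*, had means of 0.273 and 0.724 CPM (log2 fold change 0.67) and passed the filter in the same way.

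The largest group of members lies on chromosome I between 13083321 and 13144623, where 14 *pals* genes stand in 61.3 kb, 7 on each strand. In all 14 every *pri-1* RNAi library lay above every EV RNAi library, and the 13 tested ones were called higher. Over all tested genes these shares were 25.4% and 17.3%. *pals-2*, *pals-3*, *pals-4*, *pals-5*, *pals-7*, *pals-8*, *pals-10*, *pals-11* and *pals-13* passed the filter only through the *pri-1* RNAi libraries, where 97.4% of all such genes were called higher. The sum of the 14 was 0.822 to 3.84 CPM in EV RNAi and 91.2 to 167 CPM in *pri-1* RNAi libraries. *pals-4* (13113487 to 13116434, plus strand) had 0.147, 0.133 and 0.0652 CPM in EV RNAi and 34.7, 19.5 and 31.8 CPM in *pri-1* RNAi libraries. Its mean was 249-fold higher and its log2 fold change, 5.53 (SE 0.35), was the highest among the 37 tested members. *pals-14* (13139122 to 13141898, plus strand) had 0.326, 0.588 and 0.183 CPM in EV RNAi and 36.3, 19.9 and 27.3 CPM in *pri-1* RNAi libraries, with a log2 fold change of 5.02 (SE 0.37) and a 76.1-fold higher mean. *pals-6* (13136390 to 13138544, minus strand) had 0.269, 0.651 and 0.176 and 27.3, 18.6 and 24.7 CPM, with 4.82 (SE 0.36) and a 64.4-fold higher mean. In EV RNAi embryos these 3 genes were all under 0.7 CPM, while in *pri-1* RNAi embryos they ranked 2, 3 and 7 among the 38 members per kilobase of exon.

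*pals-5* (13130813 to 13132466, minus strand), the gene of the common reporter, had 0.130, 0.471 and 0.0783 CPM in EV RNAi and 11.7, 9.43 and 14.1 CPM in *pri-1* RNAi libraries. The mean went from 0.226 ± 0.213 to 11.7 ± 2.31 CPM (SD, n = 3), which is 51.8-fold, and the log2 fold change was 4.09 (SE 0.34). *pals-9* and *pals-2* also went past 5 CPM, from 0.267 ± 0.287 to 7.12 ± 2.36 CPM and from 0.0862 ± 0.0856 to 10.1 ± 4.49 CPM (SD, n = 3 each), with log2 fold changes of 3.32 (SE 0.39) and 4.09 (SE 0.38). Between these genes lie members with lower levels in *pri-1* RNAi embryos. *pals-11* reached 3.96 ± 0.836 CPM, *pals-8* 2.83 ± 1.09 CPM and *pals-7* 1.63 ± 0.834 CPM (SD, n = 3 each), from EV RNAi means of 0.0320, 0.0710 and 0.0810 CPM. Neighbouring members along the locus were thus all higher, but to unequal levels. *pals-7* and *pals-5*, whose annotated ends are 425 bp apart, stood at 1.44 and 10.7 CPM per kb in *pri-1* RNAi embryos. The 2 other coding genes within the locus were also called higher, beside 17.3% of all tested genes. The mean of *C17H1.2* went from 0.00958 to 2.72 CPM (log2 fold change 2.59), and it was at or under the floor in every EV RNAi library. That of *Y26D4A.21* went from 0.419 to 3.15 CPM (1.99).

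*pals-3* and *pals-12* cannot be separated with certainty, since 1185 of the 1191 bp of *pals-12* exon lie on exons of *pals-3* on the same strand. *pals-3* had 0.0671, 0.0374 and 0.0261 CPM in EV RNAi and 13.4, 5.17 and 10.1 CPM in *pri-1* RNAi libraries, and *pals-12* had 0, 0.0484 and 0.0261 and 6.26, 0.380 and 2.08 CPM. *pals-12* was the member not tested, because only *pri-1* RNAi replicates 1 and 3 reached 0.5 CPM. Most of their values were not whole numbers of reads. Their sum was 0.0671, 0.0858 and 0.0522 CPM in EV RNAi and 19.7, 5.55 and 12.2 CPM in *pri-1* RNAi libraries, a ratio of the means of 182.

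*pals-10* and *pals-13* were near the counting floor in EV RNAi embryos. *pals-10* had 0 reads in each EV RNAi library and 0.882, 0.821 and 1.18 CPM in *pri-1* RNAi libraries, a mean at least 42.7-fold higher than the floor of 3 reads per library. It is annotated with 277 bp of exon, the shortest of the family. *pals-13* had 0, 4 and 0 reads in the EV RNAi libraries and 0.750, 0.890 and 0.728 CPM in *pri-1* RNAi libraries, and 114 bp of its exons overlap those of *C17H1.2* on the same strand. *pals-15*, at the same locus, had 0.163, 0.753 and 0.104 CPM in EV RNAi and 1.43, 0.827 and 1.1 CPM in *pri-1* RNAi libraries. The lowest *pri-1* RNAi library was hardly above the highest EV RNAi library, and the log2 fold change of 1.02 (SE 0.32) was the smallest among the members called higher. That call was lost by edgeR, in 5 other alternatives, and in 5 of the 6 fits that left out 1 library, with log2 fold changes of 0.82 to 1.35 in the latter.

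**Figure D3:**
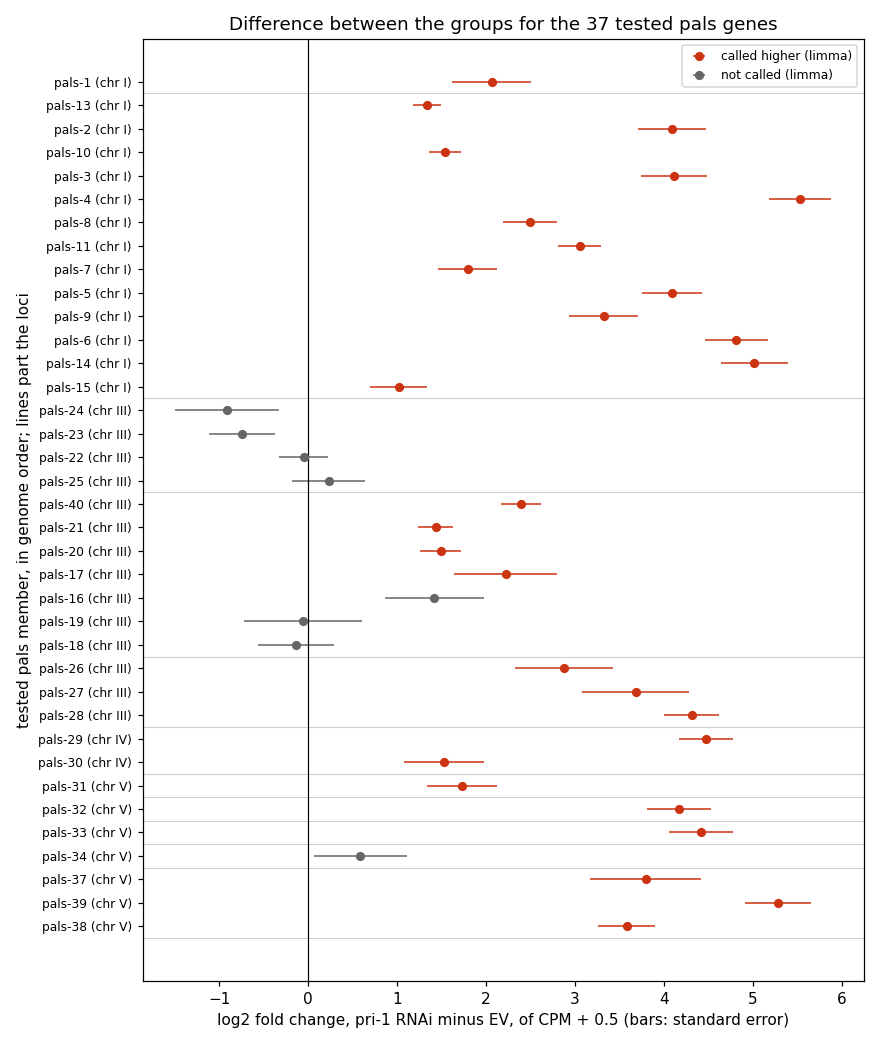
Log2 fold change (*pri-1* RNAi minus EV RNAi) of CPM + 0.5 for the 37 tested *pals* genes in genome order, with bars of 1 limma standard error. Red points were called higher and grey points were not called. All 13 tested members of the large chromosome I locus are red, from 1.02 to 5.53, and the 4 members around *pals-22* and *pals-25* are grey, from -0.91 to 0.23. Over all tested genes, 17.3% were called higher.

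The remaining loci were smaller. On chromosome III between 4375154 and 4387757, *pals-26* had 1.72, 6.26 and 1.11 CPM in EV RNAi and 23.8, 18 and 20.9 CPM in *pri-1* RNAi libraries, with a log2 fold change of 2.88 (SE 0.55). *pals-27* had 1.21, 3.07 and 0.313 and 34.1, 14 and 20.5 CPM, with 3.68 (SE 0.60). These 2 were the only called members besides *pals-1* and *pals-17* with an EV RNAi mean above 1 CPM, and in both EV RNAi replicate 2 was the highest of its group. *pals-28*, 620 bp after *pals-27*, went from 0.0583 ± 0.0168 to 10.9 ± 3.07 CPM (SD, n = 3), a 187-fold higher mean, with 4.31 (SE 0.31). *B0284.3*, a gene that lies within the same 12.6 kb, was not called by limma (adjusted p = 0.698, log2 fold change 0.15), with 37.9 ± 5.44 CPM in EV RNAi and 41.9 ± 5.18 CPM in *pri-1* RNAi embryos (SD, n = 3 each).

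On chromosome V between 12437440 and 12446995, *pals-37*, *pals-39* and *pals-38* follow each other on the minus strand. *pals-39* (12441663 to 12443854) had 0.310, 0.439 and 0.0783 CPM in EV RNAi and 34.6, 21.3 and 33.5 CPM in *pri-1* RNAi libraries, and its mean of 29.8 ± 7.37 CPM (SD, n = 3) was 108-fold higher. Its log2 fold change of 5.28 (SE 0.37) was second to that of *pals-4*, and *pri-1* RNAi replicate 2 was the lowest of its group. *pals-37* had 0.151, 2.24 and 0.236 CPM in EV RNAi and 23.9, 9.15 and 14.4 CPM in *pri-1* RNAi libraries, with a log2 fold change of 3.80 (SE 0.63). EV RNAi replicate 2 held most of the EV RNAi reads of *pals-37*, and 925 bp of its exons lie opposite the antisense RNA gene *anr-30*. The kit that made the libraries marks the strand and Salmon was left to infer the library type, but the type it found is not given in the sources used here, and the values of *pals-37* were not whole reads in any library. *pals-38* went from 0.102 ± 0.0751 to 6.93 ± 2.47 CPM (SD, n = 3), with 3.58 (SE 0.32).

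*pals-29* and *pals-30* lie on chromosome IV between 14539685 and 14551970. *pals-29* had 0.0407, 0.133 and 0 CPM in EV RNAi and 13.9, 8.92 and 13.4 CPM in *pri-1* RNAi libraries. It was thus at 5, 17 and 0 reads in the first group, while all libraries were above 8 CPM in the second, with a log2 fold change of 4.47 (SE 0.30). *pals-30* had 0.196, 0.863 and 0.0391 and 3.23, 0.944 and 1.79 CPM, and *pri-1* RNAi replicate 2 was only slightly above EV RNAi replicate 2. It was called with 1.53 (SE 0.45), and the call was lost in 4 of the 6 fits that left out 1 library and kept the tested genes (1 or 3 of either group), and in 5 of the 6 where the filter was applied anew. Over the 6 fits the log2 fold change ran from 1.18 to 1.91.

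The other 5 members stand alone. *pals-32* and *pals-33* on chromosome V went from 0.181 ± 0.140 to 12.1 ± 3.94 CPM and from 0.161 ± 0.140 to 13.9 ± 4.46 CPM (SD, n = 3 each), with log2 fold changes of 4.17 (SE 0.36) and 4.42 (SE 0.36). *pals-1* on chromosome I had 1.10, 1.98 and 0.372 CPM in EV RNAi and 5.37, 4.70 and 7.79 CPM in *pri-1* RNAi libraries, and *pals-31* on chromosome V had 0.671, 1.18 and 0.235 and 2.88, 2.38 and 4.90 CPM. Both were called, with 2.06 (SE 0.44) and 1.73 (SE 0.40), and both calls were lost without EV RNAi replicate 1 or *pri-1* RNAi replicate 3, and, where the filter was applied anew, also without *pri-1* RNAi replicate 1. Over all 6 such fits the log2 fold change ran from 1.67 to 2.42 for *pals-1* and from 1.42 to 2.01 for *pals-31*. *pals-34* on chromosome V (7955404 to 7956497) was the only one of these 5 that was not called. It had 1.82, 4.92 and 0.920 CPM in EV RNAi and 4.20, 2.31 and 4.08 CPM in *pri-1* RNAi libraries, which overlapped, with a log2 fold change of 0.59 (SE 0.52).

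The libraries of a group varied together across the family. EV RNAi replicate 2 was the highest of its group in 33 of the 38 members and EV RNAi replicate 3 the lowest in 31, where 60.8% and 70.4% of all tested genes showed the same. *pri-1* RNAi replicate 1 was the highest in 28 members and *pri-1* RNAi replicate 2 the lowest in 36, beside 57.4% and 52.1% of all tested genes. With 1 library left out and the filter applied anew, 24 to 30 members were called higher without an EV RNAi library (37 tested). Over all genes, 1729 of 14653, 2862 of 14619 and 2506 of 14742 were called higher without EV RNAi replicates 1, 2 and 3. Without *pri-1* RNAi replicates 1, 2 and 3, 5, 9 and 3 members were called higher (19 tested), beside 620 of 13716, 1152 of 13824 and 295 of 13781 genes. In these fits *pals-26* also lost its call without *pri-1* RNAi replicate 1 or 3, and *pals-27* and *pals-37* without *pri-1* RNAi replicate 3. With the tested genes held fixed instead, which was chosen after seeing the data, 24 to 30 members were called, and 24 of the 29 in each of the 6 fits. Over all 14801 genes, 1437 to 2853 were called higher in these fits. The exceptions there were *pals-1*, *pals-15*, *pals-17*, *pals-30* and *pals-31*. In 30 members all values were whole reads, and 22 of these were called higher, beside 17.3% of all tested genes.

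Genes of the IPR outside the family were described next, from lists of general knowledge that were chosen with earlier results of these data known, so their calls are no independent evidence. Of 13 tested genes without a role in the ligase or in regulation, all 13 were called higher, beside 17.3% of all tested genes. The median log2 fold change of the 13 was 4.18, beside -0.01 over all tested genes. Of the 13, 6 passed the filter on low values only through the *pri-1* RNAi libraries, where 97.4% of all such genes were called higher. The sum of the 13 was 4.16 to 10.9 CPM in EV RNAi and 378 to 668 CPM in *pri-1* RNAi libraries. *B0507.8* had 0.717, 1.18 and 0.574 CPM in EV RNAi and 168, 87.2 and 145 CPM in *pri-1* RNAi libraries (log2 fold change 6.64 (SE 0.37), adjusted p = 0.000329 from limma), and *ddn-1* had 1.56, 2.37 and 0.757 and 199, 112 and 179.7 CPM (log2 fold change 6.35 (SE 0.40), adjusted p = 0.000329 from limma). In both genes all libraries of *pri-1* RNAi embryos were above 87 CPM. *Y47H10A.5* had 0.652, 1.4 and 1.19 and 66.5, 62.1 and 77.0 CPM, with 5.47 (adjusted p = 0.000329 from limma). *F26F2.4* had 0.0489, 0.251 and 0.104 and 25.9, 16.8 and 30.7 CPM and *B0507.6* had 0.228, 0.267 and 0.0652 and 22.3, 11.4 and 18.6 CPM. These were among the 6 genes that had to differ to be tested, so no p-value is given for their log2 fold changes of 5.27 and 4.67.

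A cullin-RING ubiquitin ligase is the known effector complex of the response in *C. elegans*. The median log2 fold change of its 7 listed genes was 3.51, beside -0.01 over all tested genes. Beside 17.3% of all tested genes, 5 of the 7 were called higher. These were the F-box genes *fbxa-158* (5.01, adjusted p = 0.000348 from limma) and *fbxa-75* (4.0), the Skp1-related adaptors *skr-5* (4.78) and *skr-4* (3.51, adjusted p = 0.000842) and the cullin *cul-6* (2.28, adjusted p = 0.0344). *fbxa-75* and *skr-5* passed the filter on low values only through the *pri-1* RNAi libraries, where 97.4% of all such genes were called higher, and no p-value is given for them. *cul-6* had 4.16, 12.9 and 2.25 CPM in EV RNAi and 45.9, 16 and 25.2 CPM in *pri-1* RNAi libraries, and its call was lost in 4 of the 6 fits that left out 1 library, with log2 fold changes of 1.77 to 2.91 (without EV RNAi replicate 1 or any 1 *pri-1* RNAi library). The RING gene *rcs-1* (1.47, adjusted p = 0.0806 from limma) and *skr-3* (1.26, adjusted p = 0.0537) did not pass. With TMM scaling, with median centring, by edgeR and by DESeq2, all 7 genes were called. In all 7 every *pri-1* RNAi library lay above every EV RNAi library, which held for 25.4% of all tested genes.

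Regulators of the response outside the family showed no call, as for *pals-22* and *pals-25*. Of 7 tested genes 0 were called, 0 had an unadjusted p-value under 0.05, and edgeR and DESeq2 called 0 as well. Median centring called *drh-1* and *zip-1* higher. The library-name block, which compares the groups within 2 pairs of libraries only, called these and *efl-1* and *lin-35* (1.03). The RIG-I-like receptor *drh-1* had 13.3, 23.3 and 6.93 CPM in EV RNAi and 29.0, 15.6 and 20.6 CPM in *pri-1* RNAi libraries (log2 fold change 0.68 (SE 0.47), adjusted p = 0.331 from limma). The bZIP transcription factor *zip-1*, which acts downstream in the response, had 19.2, 27 and 6.03 and 29.1, 20.5 and 27.4 CPM (log2 fold change 0.76 (SE 0.53), adjusted p = 0.329 from limma). In both genes EV RNAi replicate 3 was far below all other libraries, and without it their log2 fold changes were 0.25 and 0.15. The STAT gene *sta-1*, the purine nucleoside phosphorylase *pnp-1* and the retinoblastoma homolog *lin-35*, which are known to repress the response, had log2 fold changes of -0.19, 0.28 and -0.12 (adjusted p = 0.653, 0.332 and 0.938 from limma). *efl-1* and *dpl-1*, which encode E2F and DP proteins, had 0.35 and 0.15 (adjusted p = 0.581 and 0.717 from limma). *lin-35* varied most, with 39.6, 117 and 8.55 CPM in the EV RNAi libraries, and the signs of *lin-35*, *efl-1*, *dpl-1* and *sta-1* changed in some alternatives.

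**Figure D4:**
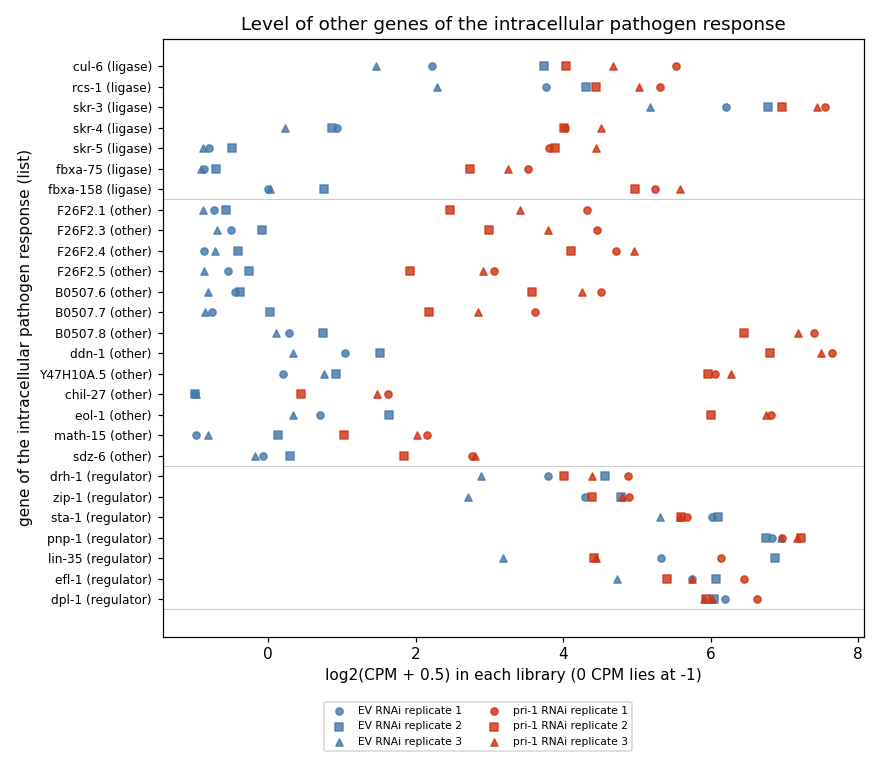
Level of the 27 other genes of the intracellular pathogen response in the 6 libraries, on the log2(CPM + 0.5) scale, with symbols as for the *pals* genes. The 7 ligase genes and the 13 other genes have every red symbol to the right of every blue one, while the symbols of 6 of the 7 regulators overlap. Every *pri-1* RNAi library lay above every EV RNAi library in 25.4% of all tested genes.

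The total was 122751267 to 162069393 recovered reads per library, counting both reads of a pair. In replicate 3 of both groups a stricter check did not accept the values as whole reads, and the floors and the edgeR and DESeq2 values share this limit. The listed markers of embryonic tissues were all detected. The summed level of 6 epidermis markers was 664 to 771 CPM in EV RNAi and 327 to 389 CPM in *pri-1* RNAi libraries (2 of 6 called lower), that of 6 neuron markers 816 to 978 and 1034 to 1287 CPM (1 called higher and 1 lower), and that of 6 muscle markers 3857 to 6032 and 2171 to 4398 CPM (2 called lower). The sum of the neuron markers was carried by *snb-1*, with means of 475 and 907 CPM, while the other 5 had lower means in *pri-1* RNAi embryos and the median log2 fold change of the 6 was -0.63. Among the epidermis markers, *dpy-7* had the highest means in both groups, 441 and 132 CPM. The 8 intestine markers summed to 895 to 1516 and 680 to 1348 CPM. Most of that sum was *act-5* (means of 700 and 624 CPM) and *ifb-2* (394 and 362 CPM). *end-3* was called higher (0.236 and 2.52 CPM) and *pept-1* lower (54.5 and 10.8 CPM). The 7 germ plasm markers summed to 29.8 to 98.3 and 72.9 to 109.9 CPM (1 called higher and 1 lower). The 6 markers of adult yolk and cuticle summed to 15.2 to 739 and 15.2 to 59.9 CPM, with the high value in EV RNAi replicate 1, and 0 were called. The part of these differences in the levels of the *pals* genes was not tested.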

How the data were processed

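The members and gene lists were chosen with earlier results of these data known, and the lists were written from general knowledge of the IPR. RNA was sequenced as paired 150 bp reads from 6 embryo libraries. The authors trimmed the reads (Trimmomatic 0.36), assigned them to WBcel235 transcripts with Salmon 1.4.0, summed them into genes with tximport and tested read counts with edgeR 3.32.1. They deposited CPM for 19933 genes, of which 166 were at 0 in all libraries, and no column was left unused (0). CPM were divided by the value of 1 read, and 91.0% to 92.3% of values above 0 in each library came out whole (within 0.02 reads). This step assumes that the most frequent low value is 2 reads, since both reads of a pair appear to have been counted, and with a step of 1 pair all recovered reads would be halved. In EV RNAi replicate 3 and *pri-1* RNAi replicate 3 a stricter check of the steps did not accept whole reads, so counting floors, edgeR and DESeq2 rest on less certain reads there.

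As the deposited values are CPM, the main test was limma 3.58.1 (R 4.3.3; eBayes with trend) on log2(CPM + 0.5), for genes that reached 0.5 CPM in 3 or more libraries, with Benjamini-Hochberg adjustment over all 14801 genes. An exact permutation test of 3 against 3 libraries cannot go below p = 0.1. Alternatives were pseudocounts of 0.1 and 1, no filter, a mean of at least 5 CPM, TMM scaling, median centring, eBayes without trend, replicate blocks, edgeR 4.0.16 and DESeq2 1.42.0 on recovered reads (more than 10 in at least 3 libraries), and each library left out. The fits were tested on simulated data. Loci, coordinates and exon overlaps come from Ensembl release 115, with members no more than 20 kb apart placed in 1 locus.

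Named with values were the regulators and members of known role, the 10 members with the highest *pri-1* RNAi mean, the 5 highest and 5 lowest log2 fold changes, every member below 0, the 5 genes with the smallest p-values of each IPR effector list, all IPR regulators and *pri-1*. Values of other genes were added after they were seen. Of the 24 names in the second list, 10 were older names of *pals* genes and were left out of it, and *chil-28* was not analysed here.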

Additional observations from a re-analysis of the deposited data

How the results depend on the processing

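The number of *pals* members called higher was 27 to 31 in the other alternatives over all libraries, against 29, except with a mean of at least 5 CPM, where 20 members could be tested and 14 were called. The count of members called lower was 1 with TMM scaling, 1 with edgeR and 2 with DESeq2. Leaving out 1 library gave 3 to 30 higher and 0 to 2 lower, the latter without EV RNAi replicate 3. Without a *pri-1* RNAi library 19 members were tested, of which 11 were called with all libraries and 5, 9 and 3 without replicates 1, 2 and 3. Over all genes, 620 of 13716, 1152 of 13824 and 295 of 13781 were called higher in these 3 fits. Over the genes tested with all libraries, an alternative chosen after seeing the data, 24 to 30 were higher and 0 to 2 lower. Among members with whole reads in all libraries, chosen in the same way, 22 were higher.

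The other IPR genes gave 13 calls, 8 under the minimum mean of 5 CPM and 6 to 13 with 1 library left out. The ligase genes gave 5, and 7 with TMM scaling, with median centring, by edgeR, by DESeq2 and with the library-name block. Under the minimum mean of 5 CPM 4 of 6 tested ligase genes were called, and 2 to 7 were called with 1 library left out. The 7 regulators gave 0, and 2 with median centring.

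The median log2 fold change of all genes was -0.01, -0.19 with TMM scaling and 0.20 with median centring. All genes split into 2564 higher and 1471 lower calls, and into 2507 and 2648 with TMM scaling, 3212 and 1265 with median centring, 3600 and 2760 with edgeR, and 4257 and 3415 with DESeq2. With the filter applied anew they were 295 and 26 without *pri-1* RNAi replicate 3, and 2506 and 2955 without EV RNAi replicate 3. Over the genes tested with all libraries, chosen after seeing the data, they were 1437 and 273, and 2509 and 2993.

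Signs turned in genes that were not called. With median centring, log2 fold changes were 0.0758 for *pals-18*, 0.15 for *pals-19*, 0.16 for *pals-22*, 0.091 for *lin-35* and 0.024 for *sta-1*. *dpl-1* was -0.0583 with TMM scaling, -0.0561 with edgeR and -0.0265 with DESeq2. With 1 library left out, ranges were -0.47 to 0.22 for *pals-18*, -0.78 to 0.58 for *pals-19*, -0.24 to 0.14 for *pals-22*, -0.14 to 0.57 for *pals-25*, -1.10 to 0.76 for *lin-35*, -0.0427 to 0.63 for *efl-1* and -0.0719 to 0.28 for *dpl-1*. Within these ranges, *lin-35* was also above 0 without *pri-1* RNAi replicate 2 (0.173) and replicate 3 (0.16), and *pals-19* without EV RNAi replicate 1 (0.0222) and without *pri-1* RNAi replicates 2 (0.0884) and 3 (0.0013). The cause was not tested.

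Not every pair of libraries with the same replicate number deviated together (correlations of 0.0402, -0.323 and 0.458 across genes). These correlations cannot show whether the numbers pair the samples. With the replicate number as a block 27 members were called higher and 0 lower (2110 and 1043 genes in all). The number in the library name of the description is shared by 2 pairs. These are EV RNAi replicate 1 with *pri-1* RNAi replicate 1 (0.0402) and EV RNAi replicate 3 with *pri-1* RNAi replicate 2 (0.372). EV RNAi replicate 2 and *pri-1* RNAi replicate 3 have no partner. A fit with this number as a block thus compares the groups within the 2 pairs only. In that fit 30 members were called higher and 0 lower (4159 and 1917 genes), and 4 regulators and *pals-16* (1.87) were called. Log2 fold changes turned to 0.27 for *pals-18*, 0.64 for *pals-19*, 0.15 for *pals-22* and 1.03 for *lin-35*.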
